A study of Rattus norvegicus with 15 samples.

Results

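Osteogenic medium was compared with untreated culture in rat bone marrow mesenchymal stem cells, using 6 of the 15 libraries of an RNA sequencing study of aspirin in fat and bone differentiation. The members are the 3 Ost and the 3 Control libraries, taken by their labels, and the 14210 genes with an Ensembl rat identifier that had enough reads to be tested. Both groups were marrow cells of Sprague-Dawley rats, an outbred strain, grown to confluence at passage 3-6. Control cells were untreated, and Ost cells were kept in osteogenic differentiation medium without aspirin. Adi cells (adipogenic medium) and Adi_ASA and Ost_ASA cells (each medium with aspirin, 3 libraries per group) entered the model with Ost and Control, where they add to the filter, the scaling and the estimate of each gene's spread, and their levels are set beside those of Ost and Control below. The labels name no reporter, deletion or sorting step. The sources used here do not give the composition of the medium, the days in it, the age and sex of the rats, or whether Control was harvested at the same time as Ost. Medium, time in culture and any batch therefore cannot be told apart. The labels also leave out whether libraries of a group came from different rats or dishes, and the p-values then cover only the spread among these libraries, part or all of which may be technical.

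Marrow stromal cells can give rise to bone-forming osteoblasts, fat cells and cartilage cells. Commitment to bone is known to run through the transcription factors Runx2 and Sp7, with alkaline phosphatase and type I collagen made early and osteocalcin (Bglap) later, as the cells leave the cell cycle and lay down a matrix that takes up mineral. The count table gives no gene symbols, and 0 of its 34480 rows could be paired with a symbol in the gene table used here. These osteoblast genes, and the markers that would test the cell type label, were therefore not analysed here. Gene functions and sequences are not given for the same reason, and genes are described by how far, how evenly and from which level they moved.

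The 6 libraries held 18373289 to 22817858 counted reads, and total reads did not separate the groups. Replicates were close to each other. For genes averaging at least 1 CPM (read counts scaled to a common library size), the median SD of log2 CPM over 3 libraries was 0.087 in Control and 0.093 in Ost.

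The size of the shift was first measured as the percentage of a library's reads that would have to be placed on other rows to turn it into a second library. Between 2 Control libraries this was 3.11% to 3.87%, and between 2 Ost libraries 2.81% to 3.95%. Between a Control and an Ost library it was 30.9% to 31.8% over 9 pairs, with a median of 31.4%. Every such pair lay far above every replicate pair. A change of medium thus went with about as many differently placed reads in each pair, whichever Control and Ost libraries were set against each other. For scale, Ost and Ost_ASA libraries differed by 4.38% to 6.999%, and Control and Adi libraries by 15.5% to 18.3%. The difference between Ost and Control was spread over many genes. The 10 rows with the largest difference in share of reads held 18.6% of it, the first 100 held 43.1% and the first 500 held 65.9%.

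**Figure D1:**
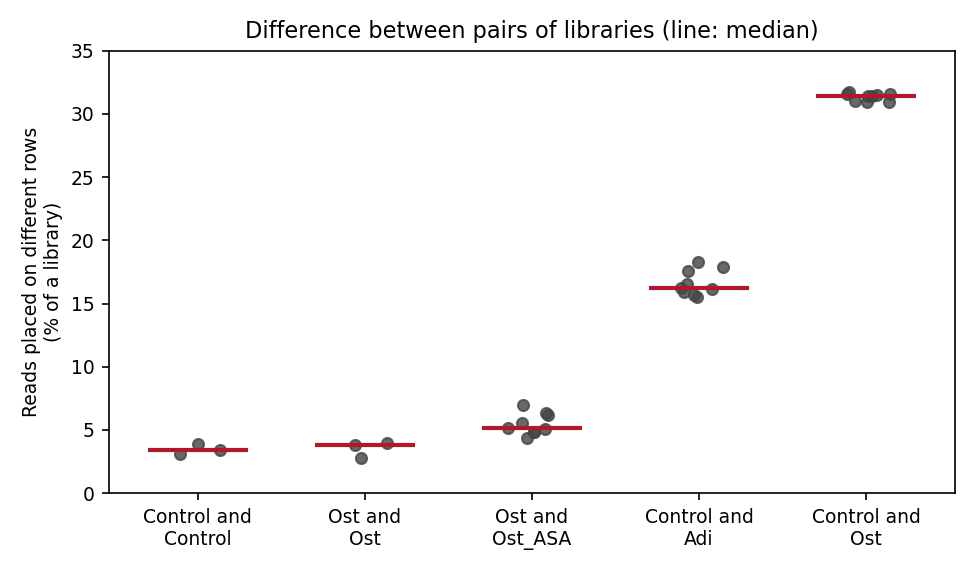
Percentage of a library's reads placed on different rows, for each pair of libraries (points) with the median of each kind of pair (line). Control and Ost pairs lie at 30.9% to 31.8%, and replicate pairs at 2.81% to 3.95%.

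More than 2 in 3 of the genes tested differed between Ost and Control. In Ost relative to Control, 4995 genes rose and 4873 fell (edgeR quasi-likelihood test, Benjamini-Hochberg adjusted p under 0.05), which is 69.4% of 14210, with 35.2% higher and 34.3% lower. The split between directions depends on the scaling, since TMM factors centre the fold changes near 0. The median log2 fold change over all of these genes was -0.01 with TMM factors and -0.09 with upper-quartile factors, which gave 4406 rises and 5505 falls. In bulk cultures such as these, fewer cells of a type and less RNA per cell cannot be told apart. In scaled CPM, all 3 Ost libraries lay outside the range of the 3 Control libraries for 73.1% of the genes. They lay above it for 4876 of the genes that rose and below it for 4721 of those that fell. Of the 4342 genes not called, they lay above it for 378 and below it for 413.

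Most of the changes were small. The median rise was 1.62-fold and the median fall 1.79-fold. Of the genes that rose, 2118 (42.4%) rose by less than 1.5-fold, and of those that fell, 1754 (36.0%) fell by less than 1.5-fold. The smallest changes called were 0.12 and -0.11 on the log2 scale. When the test asked for evidence of more than a 1.5-fold change, 2269 genes rose and 2402 fell.

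Counted over all genes tested, falls outnumbered rises among the large changes, but not in every class of read number. Below 1.5-fold and from 1.5-fold to 2-fold there were more rises than falls, 2118 against 1754 and 1154 against 1019. From 2-fold to 4-fold there were 940 rises and 1113 falls, from 4-fold to 16-fold 535 and 614, and from 16-fold upwards 248 and 373. In all, 1723 genes (12.1%) rose and 2100 (14.8%) fell at least 2-fold. Over all genes, the excess of falls from 2-fold upwards held under all 3 scalings run. RLE factors gave 1724 rises and 2099 falls, and upper-quartile factors 1569 and 2252. By mean CPM over both groups, with TMM factors only, the excess lay in genes with few reads. Under 1 CPM 262 genes rose and 469 fell at least 2-fold, and from 1 to 10 CPM 492 and 811. Rises were more numerous from 10 to 100 CPM (657 against 599) and from 100 to 1000 CPM (289 against 194). Over 1000 CPM there were 23 and 27. The excess of rises below 2-fold did not hold under upper-quartile factors, which gave 1858 rises and 1994 falls below 1.5-fold and 979 and 1259 from 1.5-fold to 2-fold.

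**Figure D2:**
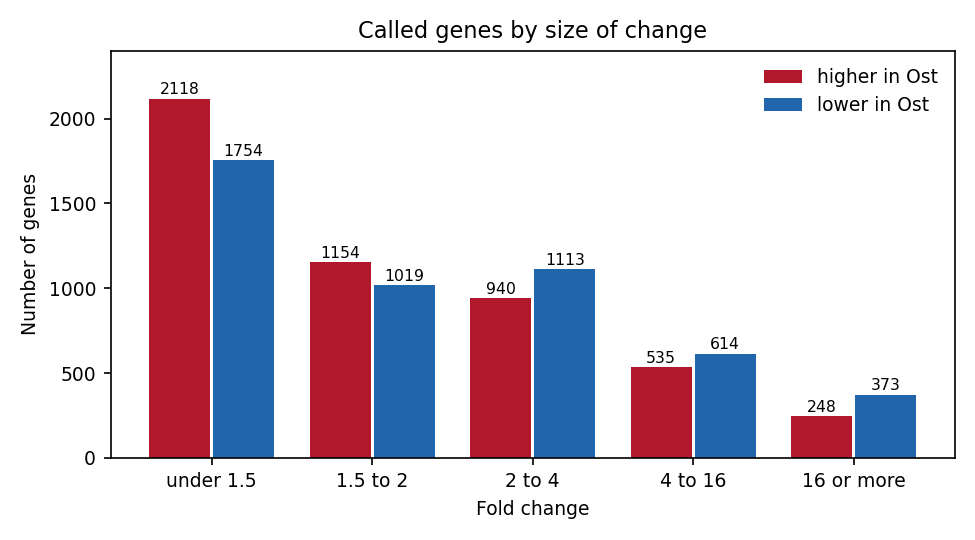
Number of genes that passed the test (vertical axis), by size of fold change (horizontal axis) and direction. Over all genes tested, falls outnumber rises in each class from 2-fold upwards, with 373 against 248 at 16-fold or more. Among genes of 10 to 1000 CPM, rises of at least 2-fold were the more numerous. The reverse order below 2-fold turned with upper-quartile scaling.

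For 4342 genes no difference passed the test, which by itself does not show that they stayed the same. The 95% interval of the fold change lay within 1.5-fold in either direction for 2602 of them and within 2-fold for 3268. The other 1074 were not bounded within 2-fold, so a change of that size is not excluded for them. They include 8 genes with a fitted change of 0 and no standard error. Over all tested genes, 4996 had an interval within 1.5-fold, and 2394 of those still passed the test for a change smaller than that.

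How often a change was called, and how large it was, varied with the number of reads per gene. CPM values here are not divided by gene length, so the classes that follow are classes of read number. Of the 1592 genes averaging under 1 CPM over both groups, 49.1% were called, with 280 rises and 502 falls. From 1 to 10 CPM 62.3% of 3658 genes were called, with 887 rises and 1393 falls. These sparse classes held more falls than rises, also under RLE and upper-quartile factors, which used the same filtered genes. The filter asks for enough reads in as many libraries as 1 group holds. A gene this sparse can therefore pass through 1 group alone. The shares called, or changed at least 2-fold, under 1 CPM thus follow in part from the filter.

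From 10 to 100 CPM, the class with most genes, 73.7% of 7113 were called, and rises (2976) outnumbered falls (2266). From 100 to 1000 CPM 84.4% of 1757 were called, with 820 rises and 663 falls. With upper-quartile factors the excess of rises was gone in both classes, at 2569 rises and 2668 falls from 10 to 100 CPM and 744 and 743 from 100 to 1000 CPM. Precision differed along this range. The median standard error of the log2 fold change was 0.48 under 1 CPM, 0.20 from 1 to 10, 0.079 from 10 to 100 and 0.061 from 100 to 1000 CPM.

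Of the 90 genes with over 1000 CPM, 90% were called, against 69.4% of all genes tested. The test called 32 higher and 49 lower, and 23 rose and 27 fell at least 2-fold. At 55.6% that share of 2-fold changes was above that of every other class. It was 45.9% under 1 CPM, 35.6% from 1 to 10, 17.7% from 10 to 100 and 27.5% from 100 to 1000 CPM. The classes from 10 CPM upwards were measured precisely. The median standard error was 0.072 over 1000 CPM and 0.079 from 10 to 100 CPM. The median size of the log2 fold change was 1.17 over 1000 CPM, 0.54 from 100 to 1000 CPM and 0.41 from 10 to 100 CPM.

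**Figure D3:**
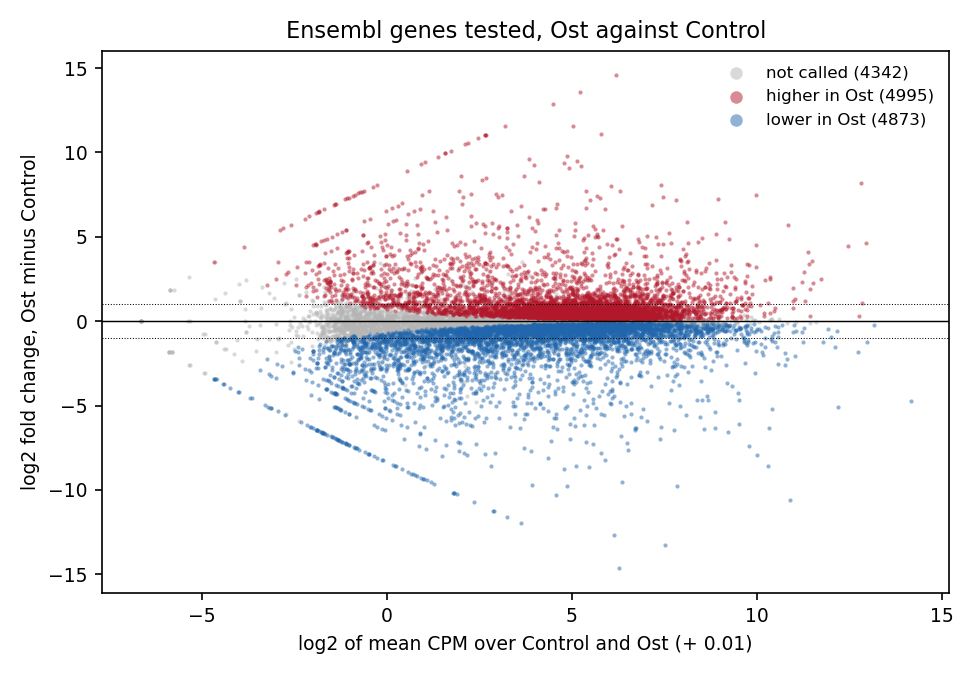
Each point is 1 gene with an Ensembl identifier, with log2 of its mean CPM over both groups (plus 0.01) across and its log2 fold change, Ost minus Control, upwards; dotted lines mark 2-fold. The 4995 genes called higher and 4873 called lower lie on both sides along the whole range of read numbers, and the straight edges at the left are genes with 0 reads in all libraries of 1 group.

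Most of the 10 genes with most reads differed between the groups. The row with most reads in Control took 3.69%, 3.70% and 3.73% of the reads of the Control libraries and 0.125%, 0.134% and 0.148% of those of the Ost libraries, where it ranked 64th. The row with most reads in Ost took 1.58%, 1.60% and 1.496% there and 0.0592%, 0.0676% and 0.0665% in Control, where it ranked 188th. For both rows all libraries of one group lay above all of the other. Of the 10 Ensembl rows with most reads in each group, 2 were shared, of the first 100, 46 were shared, and of the first 500, 317 (63.4%) were shared. Among the 100 rows with most reads in Control, 77 fell in Ost, 45 of them at least 2-fold and 12 at least 16-fold. Over all genes tested, 34.3% fell, 14.8% at least 2-fold and 2.62% at least 16-fold. Among the 100 with most reads in Ost, 65 rose, 49 of them at least 2-fold and 10 at least 16-fold. The shares over all genes tested were 35.2%, 12.1% and 1.75%. These rows were chosen in the libraries compared, so their directions are a description.

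The row with most reads took a smaller share of a library in Ost, and fewer genes were detected. The first row of each library, a different gene in Control and in Ost, took 3.71% ± 0.0194 (SD, n = 3) in Control and 1.56% ± 0.0535 in Ost. The 10 rows with most reads in each library took 11.1% ± 0.123 in Control and 9.02% ± 0.164 in Ost, and the first 100 took 27.8% ± 0.317 and 25.9% ± 0.328. Ost minus Control was -2.15 points for the first row, -2.04 for the first 10 and -1.91 for the first 100. The lower shares in Ost thus do not show a wider spread of reads beyond the first row. Ensembl rows with at least 1 read numbered 17566, 17427 and 17689 in Control and 16927, 16808 and 16986 in Ost. Rows at 1 CPM or more numbered 12446 to 12546 in Control and 12153 to 12210 in Ost. The groups did not overlap in any of these measures. An exact permutation test, two-sided, gave p = 0.1 for each, the smallest value that 3 libraries against 3 allow, and an adjusted p of 0.117 over the 7 measures of this kind.

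Genes that changed at least 2-fold accounted for a large part of the reads that moved. The 1723 genes that rose at least 2-fold took 6.95%, 6.70% and 6.76% of the reads in the Control libraries and 29.7%, 29.9% and 29.7% in the Ost libraries. The 2100 genes that fell at least 2-fold went from 27.0%, 27.5% and 27.2% in Control to 5.88%, 5.96% and 6.14% in Ost. These sets were defined by the same libraries, so the direction is given by the choice of genes. The Ost_ASA libraries were not part of the contrast, though they added to the filter, scaling and spread of the fit, and there the sets took 29.9% to 30.2% and 6.16% to 6.52%. In the Adi libraries they took 8.50% to 8.98% and 26.9% to 27.2%. The read shares of both sets in adipogenic medium thus lay nearer to those of Control than to those of Ost. For the raised set, every Adi library still lay above every Control library. Read shares in osteogenic medium with aspirin lay near those of Ost. Such sums weigh genes by their reads and do not show that each gene in Adi stayed at its Control level. Genes lowered at least 64-fold in Ost took 2.35% in Control and 0.793% in Adi, and those raised at least 64-fold took 0.00909% and 0.0315%.

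**Figure D4:**
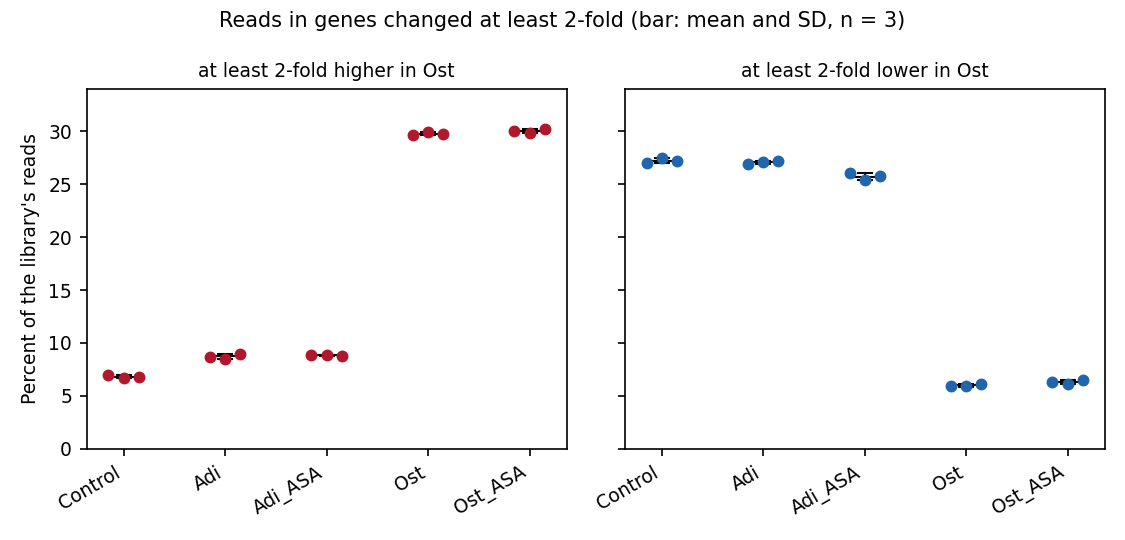
Percentage of each library's reads (points) in the 1723 genes at least 2-fold higher in Ost (left) and the 2100 at least 2-fold lower (right), with the mean and SD of 3 libraries. Ost_ASA lies near Ost in both sets, and Adi lies nearer to Control than to Ost.

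The 248 genes raised at least 16-fold (1.75% of those tested) had few reads in Control. Their median level was 0.140 CPM in Control and 12.6 CPM in Ost, where the middle 50% ranged from 2.03 to 75.7 CPM. The median was 13.6 CPM in Ost_ASA and 0.425 CPM in Adi. In Control, 94 of the 248 had 3 reads or fewer over all 3 libraries together and 42 had 0. Together these genes took 0.221% ± 0.00591 (SD, n = 3) of the reads in Control and 7.28% ± 0.158 in Ost. With 0.05 CPM added to each mean, Ost_ASA was within 1.5-fold of Ost for 199 of them. The same count was not made over all genes tested, so it does not set these genes apart.

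Summed over genes, the 373 lowered at least 16-fold (2.62%) took a larger share of reads in Control than the 248 raised genes took in Ost. They took 8.84% ± 0.0986 (SD, n = 3) of the reads in Control and 0.241% ± 0.0137 in Ost, with 0.270% in Ost_ASA and 9.29% in Adi. Their median level was 5.65 CPM in Control, 0.0927 CPM in Ost, 0.106 CPM in Ost_ASA and 2.37 CPM in Adi. Per gene, that median in Control lay below the 12.6 CPM median of the 248 raised genes in Ost. With 0.05 CPM added to each mean, Ost_ASA was within 1.5-fold of Ost for 269 of the 373. Many of these levels lie near the value added. In Ost, 165 of the 373 had 3 reads or fewer over the group and 84 had 0. Fitted folds against such low counts rest on the model's prior count. With groups under 3 reads set to 3, 231 genes rose and 333 fell at least 16-fold. On that scale the median log2 change was 5.02 for the 248 genes, against a fitted 5.43, and -4.91 for the 373 genes, against a fitted -5.48.

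A small number of genes were read in one condition and not in the other. At the depth of these groups, 0 reads allow a level of up to 0.0451 CPM in Control and 0.0462 CPM in Ost (3 counts over the group, which covers counting error only). With 0 reads in Control, 15 rows averaged at least 5 CPM in Ost, with a median of 12.5 CPM. Of these rows 14 were read in all 3 Ost libraries, and 13 also averaged at least 5 CPM in Ost_ASA. None of the 15 reached 5 CPM in Adi, where 2 had 0 reads. In the other direction, 10 rows averaged at least 5 CPM in Control with 0 reads in Ost, and all 10 were read in all 3 Control libraries. Their median level was 12.4 CPM in Control. In Ost_ASA 5 of them had 0 reads and the highest had 4 reads over the group, whereas in Adi 4 were at 5 CPM or more and 0 were without reads. Which direction had more such rows depended on the level asked for. At 1 CPM or more in the other group, 26 rows had 0 reads in Control and 39 had 0 reads in Ost. At 0.5 CPM or more the numbers were 38 and 76. Over the wider set of rows averaging at least 1 CPM, 759 reached that level in Control alone, 491 in Ost alone and 11753 in both.

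The genes with the 2 largest rises and 2 largest falls are given by identifier. They were the extremes among genes that passed the test, did not overlap between the groups and averaged at least 5 CPM in the higher group, so their size in Ost and Control is a description. The levels in Adi, Adi_ASA and Ost_ASA were not part of the contrast, but those libraries added to the filter, scaling and spread behind the test.

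ENSRNOG00000029980 had 0 reads in each Control library and 3494, 2686 and 3369 reads in the Ost libraries, or 150, 141 and 149 CPM. Against the limit that 0 reads allow, its level in Ost was at least 3253-fold higher (adjusted p = 9.12e-22 by edgeR). Its reads in Adi were 48, 45 and 59, and in Adi_ASA 56, 66 and 56. The order was therefore Control, then Adi (2.77 ± 0.341 CPM, SD, n = 3) and Adi_ASA (3.09 ± 0.182 CPM), which overlapped, then Ost (147 ± 5.29 CPM). Ost_ASA was at 152 to 175 CPM, above the highest Ost library in all 3 libraries. This gene was thus read in every library of both differentiation media and in none of the untreated cells.

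ENSRNOG00000007680 also had 0 reads in Control, with 1721, 1495 and 1636 reads in Ost, or 74.0, 78.3 and 72.6 CPM. Its level in Ost was at least 1661-fold higher (adjusted p = 1.16e-18 by edgeR). Ost_ASA was at 59.6 to 72.3 CPM. In adipogenic medium 1 read was counted over the 3 Adi libraries and 1 over the 3 Adi_ASA libraries. Unlike the gene before it, this one was near 0 in every library outside osteogenic medium.

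ENSRNOG00000000010 had 3402, 3541 and 3260 reads in Control, or 141, 165 and 156 CPM, and 0 reads in each Ost library. Its level was at least 3331-fold lower in Ost (adjusted p = 9.66e-17 by edgeR). All Ost_ASA libraries were at 0 as well. In Adi it was at 34.8 ± 4.84 CPM (SD, n = 3) and in Adi_ASA at 32.9 ± 1.07 CPM, values that overlapped and lay between the other groups.

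ENSRNOG00000007335 had 9570, 7578 and 7408 reads in Control, or 396, 354 and 354 CPM. In Ost it had 0, 0 and 2 reads, 11942-fold lower, with counting error alone allowing 3306-fold to 98608-fold (exact 95% interval; adjusted p = 3.61e-11 by edgeR). The log2 fold change of -13.29 became -15.88 without Ost replicate 3, which held both reads. In Ost_ASA it had 3, 1 and 1 reads. Adi, at 28.9 to 47.3 CPM, and Adi_ASA, at 24.6 to 33.6 CPM, overlapped and lay between Control and the osteogenic groups. Both genes named for their falls thus still had 24.6 CPM or more in every adipogenic library.

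**Figure D5:**
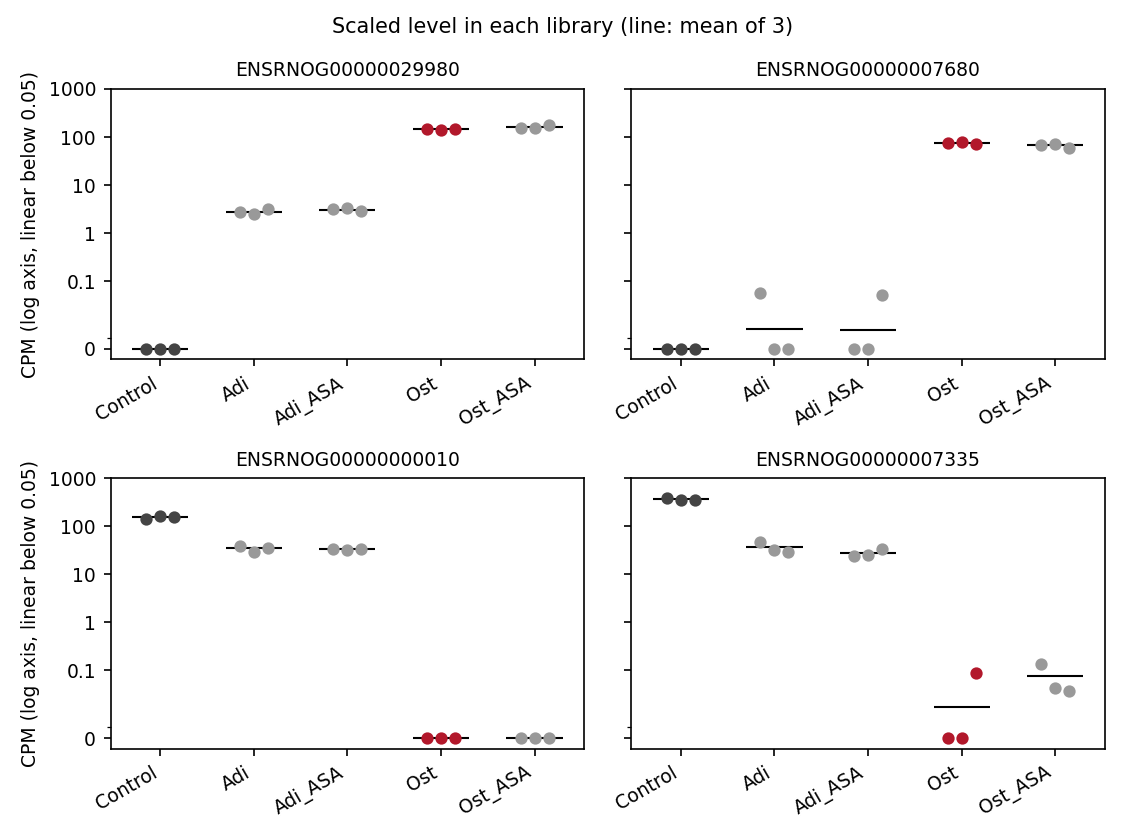
Level of the 4 named genes in each of the 15 libraries (points), with the mean of each group (line), in CPM on a log axis that is linear below 0.05. The upper genes are at 0 in Control and at 72.6 CPM or more in all Ost libraries, and the lower genes are at 141 CPM or more in Control and at 0.0887 CPM or less in Ost.

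The next genes under the same rule are a description as well. Ranking by fitted fold change favours genes near 0 reads in the lower group. Their few reads there thus follow in part from the ranking, for rises and falls alike. The 12 largest rises among the 4276 genes that met it had 0 to 3 reads over the Control group, and 10 of them had 0. They averaged 8.69 to 147 CPM in Ost, with a median of 15.5 CPM. In Ost_ASA they averaged 8.66 to 195 CPM and in Adi 0 to 2.77 CPM. Every one of the 12 thus had a lower level in Adi than in either osteogenic group.

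The 12 largest falls among 3636 genes had 0 to 157 reads over the Ost group, and 8 had 0. They averaged 6.99 to 3820 CPM in Control, with a median of 21.7 CPM, and 0 to 2.57 CPM in Ost_ASA. In Adi they ranged from 0.33 to 1953 CPM, and none was without reads there. The falls thus included genes with far more reads in Control than any of the 12 rises had in Ost.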

How the data were processed

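RNA from Control, Ost, Adi, Adi_ASA and Ost_ASA cells (5 groups of 3 libraries) was sequenced. The authors deposited 1 table of read counts, unnormalised whole numbers with 34480 rows. Of these, 32883 rows have an Ensembl identifier and 1597 another kind of name. The build Rnor_6.0 and the tools HTSeq 0.9.1, HISAT2 2.0.4 and DESeq 1.18.0 are named in the submitters' processing notes. The sources used here do not say what each tool did, whether counting used strand or how reads of overlapping genes were treated, so values of near-identical or overlapping genes are uncertain.

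The test was run in edgeR 4.0.16 (R 4.3.3). filterByExpr over 5 groups left 15543 rows, 14210 of them with an Ensembl identifier. Group means were fitted over all 15 libraries in a quasi-likelihood model (TMM scaling, estimateDisp, glmQLFit with robust estimation, glmQLFTest), with Benjamini-Hochberg adjustment over all 15543 rows at 0.05. CPM values use library size and TMM factor. Alternatives were RLE and upper-quartile factors, no filter, DESeq2 1.42.0, the 6 libraries alone, the replicate block, a test against 1.5-fold and leaving out each library. The code was tested on simulated data.

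The comparison, the lists and the rules were chosen with earlier results of these data known. The naming rule asked for symbols. As 0 rows matched one, its fallback applied: 2 identifiers in each direction. The 31 gene lists written for the comparison could not be matched, and their counts were not run. The measures of read shares, read classes and detection were chosen after seeing the data.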

Additional observations from a re-analysis of the deposited data

How the results depend on the processing

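The count of changed genes with an Ensembl identifier, 9868, lay between 9444 and 10192 under 12 of 13 alternatives, and was 9444 to 9542 when each Ost or Control library was left out in turn. The test against a 1.5-fold change, which asks for more than the main test, gave 4671 genes, 2269 higher and 2402 lower. Without a filter on low counts, 574 genes fell at least 16-fold, against 373, with 21979 genes tested in place of 14210. No gene changed direction between calls under any of the 13 alternatives. Rises made up 50.6% of the changed genes, and 44.5% to 51.1% under the alternatives. The 4 named genes kept their calls under all 13, with adjusted p of at most 1.01e-08 in edgeR or DESeq2. The replicate block gave 9782 changed genes. The numbers do not pair the libraries by the data (correlation of deviations from the group mean over genes, same number in Ost and Control, -0.03 to -0.07), and the best match had another number for all 3 Ost libraries. Gene lists were tried under no setting, since none could be matched. Genes under 1 CPM, with a median standard error of 0.48 on the log2 scale, limit what can be said of small changes.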

Other observations

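The 1597 rows without an Ensembl identifier lay outside the comparison above but were part of the same fit. Of the 1333 tested, 63.6% passed the test (edgeR adjusted p under 0.05), 319 higher and 529 lower in Ost, so 62.4% of the called rows were lower, against 49.4% among Ensembl genes. Their median log2 fold change was -0.28. They took 0.821% to 0.876% of the reads in Control and 0.673% to 0.708% in Ost, and the groups did not overlap.

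One row singled out after its values were seen, ENSRNOG00000061031, had 2675 reads in Ost replicate 1 (115 CPM) and 0 reads in the other 14 libraries. It did not pass the filter and was not tested, and it is the row of the 15 at 0 in Control that was not read in all Ost libraries. Of the 1649 Ensembl rows read in 1 of the 15 libraries only, 2 had at least 100 reads, and the second had 161.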
